A study of Mus musculus with 10 samples.

Results

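The effect of a high-fat diet (HFD) against a standard diet (SD) was followed in visceral white adipose tissue (WAT) of *Mof* heterozygous (*Mof*+/-) mice. The comparison uses 5 of the 10 mRNA-seq libraries of the series, 3 from SD *Mof*+/- and 2 from HFD *Mof*+/- mice, chosen by their sample labels. The other 5 libraries came from wild-type (*Mof*+/+) mice on the same diets, share no library with the comparison, and are given beside it. All mice were C57BL/6. By the series description, the SD mice were 8 weeks old and the HFD mice were 27 weeks old after 20 weeks of HFD, while the study's text gives a different feeding time. Diet and age therefore cannot be told apart. Both groups are heterozygous for *Mof* in the whole body, so every cell type in the tissue carries the same genotype, and RNA came from whole homogenised fat. In such bulk samples, fewer cells of a type and less RNA per cell cannot be told apart.

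MOF, encoded by *Kat8*, is a lysine acetyltransferase that acetylates histone H4 and works in the MSL and NSL complexes. Visceral WAT stores triglyceride in adipocytes and secretes hormones such as adiponectin and leptin. Under prolonged overfeeding it is known for recruiting macrophages, which surround stressed adipocytes, take up their lipid and switch on a programme marked by *Trem2*, *Gpnmb* and lysosomal genes.

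The SD *Mof*+/- libraries held 17171947, 10425386 and 6724618 counts on genes, and HFD *Mof*+/- replicates 1 and 2 held 1044355 and 5531786. Levels below are in CPM (counts per 1000000 counts of a library), always in the order of the replicates. The 3 counts taken as the limit of detection correspond to 2.87 CPM in HFD *Mof*+/- replicate 1 and 0.542 CPM in replicate 2. *Kat8* (chr7:127912516-127925837 of GRCm38) was at 12.2, 18.8 and 11.5 CPM on SD and 20.1 and 10.5 CPM on HFD. The diets overlapped for *Kat8* (log2 fold change 0.13 with a standard error of 0.80 and adjusted p = 0.976, edgeR), so neither diet group stood apart in the gene that defines the genotype.

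HFD *Mof*+/- replicate 1 stood apart. It had a count for 9155 genes, and a list of 116 skeletal muscle genes took 11.2% of its counts (95% exact binomial interval 11.1 to 11.3%), against 0.0375 to 0.335% in the other 4 *Mof*+/- libraries. The 13 genes of the mitochondrial genome took 24.8% of its counts, against 1.67 to 7.88%. Of the 84 muscle genes tested, 63 were higher in both HFD libraries than in all SD libraries, where 8.88% of all other genes were, and 59 of these were more than 5 times higher in replicate 1 than in replicate 2, with a median ratio of 29.5. *Myh4*, the myosin heavy chain of fast fibres, was at 0, 0 and 0 CPM on SD and 14505 and 176 CPM on HFD. The calcium buffer *Pvalb* was at 0, 0 and 0 CPM on SD and 6786 and 207 CPM on HFD, and the creatine kinase *Ckm* at 0, 0.384 and 5.35 CPM on SD against 7712 and 298 CPM on HFD. The troponin genes *Tnnt3* (8671 and 226 CPM), *Tnni2* (9009 and 130.3 CPM) and *Tnnc2* (5696 and 114 CPM) had the same order between the HFD libraries. Muscle genes were thus present in both HFD libraries and far more abundant in replicate 1. In HFD replicate 2 the list took 0.315% of counts, no more than the 0.335% in SD *Mof*+/- replicate 3. Genes of the list are counted apart from here on, but muscle genes outside it are not. Among the higher genes outside the list, 84 (6.58%) were over 5 times higher in HFD replicate 1 than in replicate 2.

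The diet groups also differed in sex-linked genes. *Xist*, the RNA that silences an X chromosome in female cells, was at 139, 46.1 and 58.0 CPM on SD and at 0 and 0 CPM on HFD. The Y-linked gene *Ddx3y* was at 0, 0 and 0 CPM on SD and 49.8 and 49.7 CPM on HFD, and *Eif2s3y* at 0, 0 and 0 CPM on SD against 27.8 and 36.5 CPM on HFD. All 5 *Mof*+/+ libraries had *Ddx3y* and *Eif2s3y* and no *Xist*, while the study's methods describe male mice. The SD *Mof*+/- libraries therefore carry a female pattern of these genes and the HFD *Mof*+/- libraries a male pattern, and diet, age and this pattern cannot be told apart. Mice of another sex and an exchange of samples cannot be told apart from these files either, so what the groups are rests on the labels. The headings inside the count files go against the labels for the third SD libraries, which they exchange between the genotypes, and the genotype of SD *Mof*+/- replicate 3, and of SD *Mof*+/+ replicate 3, rests on the label alone. The library labelled SD *Mof*+/- replicate 3 had *Xist* like the other 2 of its group, and the library labelled SD *Mof*+/+ replicate 3 had none. Of a list of 17 female reproductive tissue genes, 7 were tested and 4 were lower on HFD, where 18.2% of all genes were, with a sum of 23.6 to 57.1 CPM on SD and of 15.3 and 9.22 CPM on HFD. All 4 had no count in replicate 1, and 0 of them were apart beyond their counting intervals.

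Genes that mark the position of a fat depot differed as well. This list was drawn up after the values were seen. Of 27 such genes, 24 were tested, 5 were higher and 12 lower on HFD, against 8.88% and 18.2% of all genes, and 8 had no count in either HFD library. *Tbx15*, a T-box factor of subcutaneous and muscle lineages, was at 0, 0 and 0 CPM on SD and 56.5 and 18.3 CPM on HFD. *Wt1*, a factor of visceral fat and mesothelium, was at 30.2, 24.7 and 18.3 CPM on SD and 0 and 0 CPM on HFD, and *Tcf21*, a factor of visceral stroma, at 18.5, 17.3 and 9.07 CPM on SD against 0 and 0 CPM on HFD. In *Mof*+/+ WAT, *Wt1* was at 9.45, 9.31 and 6.84 CPM on SD and 4.004 and 4.93 CPM on HFD, and *Tbx15* was at 0, 0 and 4.39 CPM on SD against 0 and 0 CPM on HFD. *Hoxa10* (14.3, 22.7 and 16.5 CPM on SD, 0 and 0 on HFD) and *Hoxc10* (16.2, 11.5 and 10.6 CPM on SD against 0 and 0 CPM on HFD) had the order of *Wt1*. *Hoxc8* was also lower on HFD but remained abundant, at 75.0, 73.6 and 124 CPM on SD against 70.9 and 43.4 CPM on HFD. *Wt1*, *Tcf21*, *Hoxa10* and *Hoxc10* thus had no count in either HFD *Mof*+/- library, also in the deeper replicate 2, and whether all libraries sampled the same part of the visceral fat was not tested. Without HFD *Mof*+/- replicate 1, 7 of the 24 genes were higher and 13 lower in replicate 2 alone, where 31% and 24.8% of all genes were.

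**Figure D1:**
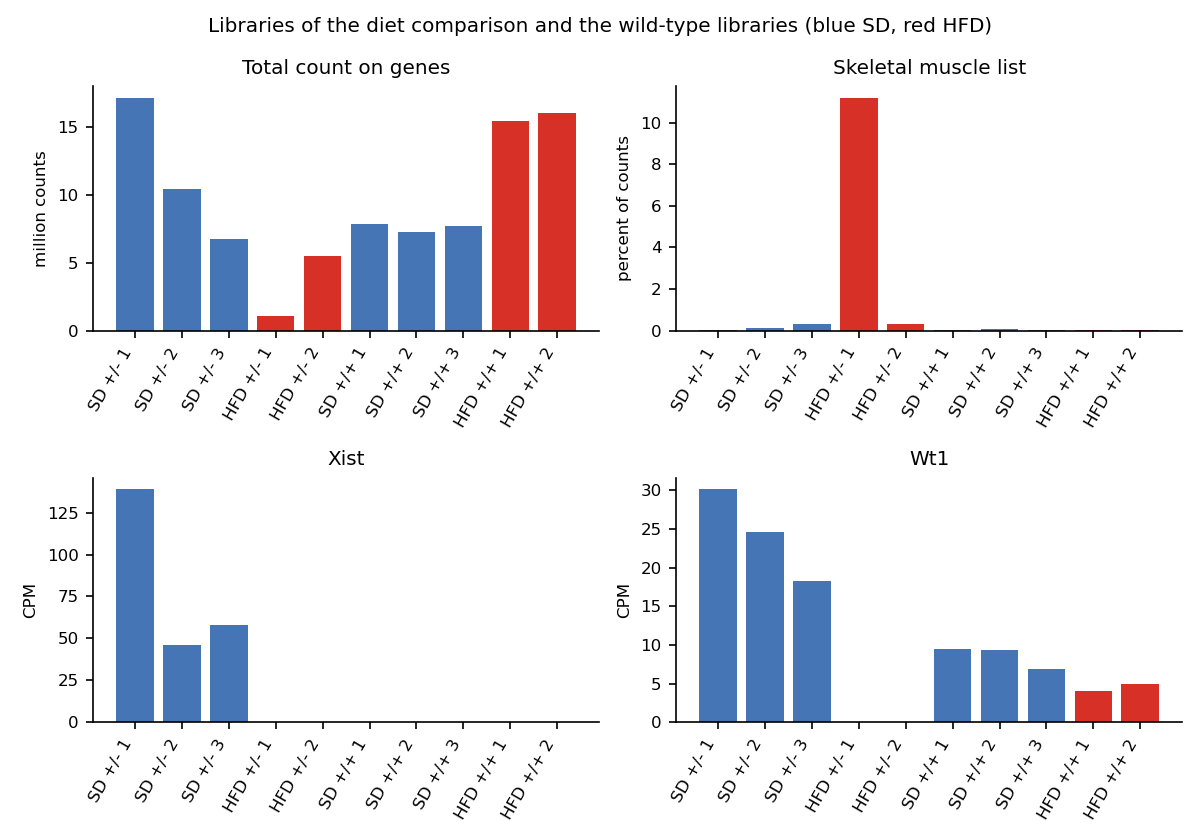
Total count, share of counts on the skeletal muscle list, and CPM of *Xist* and *Wt1* in each of the 10 libraries, with SD in blue and HFD in red and 1 bar per library. HFD *Mof*+/- replicate 1 has the lowest total and 11.2% muscle counts, and *Xist* is found only in the 3 SD *Mof*+/- libraries among the 10, while *Wt1* is at 0 in both HFD *Mof*+/- libraries and above 0 in all others.

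Genes were called separated when the CPM of both HFD libraries lay on the same side of all 3 SD libraries. Outside the muscle and mitochondrial lists, 14367 genes had at least 10 counts in at least 2 libraries. Of these, 1276 (8.88%) were higher and 2616 (18.2%) lower on HFD. A separation can rest on little: 1126 of the lower genes and 279 of the higher ones were apart by less than 1.1-fold, and 1659 of the lower genes (63.4%) had no count in HFD replicate 1, where 38.9% of all tested genes had none. With replicate 1 set aside, 31% of the genes lay above and 24.8% below all SD libraries in replicate 2 alone, so the excess of lower genes was not seen in that library. On library totals that leave out muscle and mitochondrial genes, which move the log2 CPM of replicate 1 by 0.64, 1747 genes were higher and 2431 lower. With edgeR's quasi-likelihood test, 0 of 14464 genes passed an adjusted p of 0.05 (0%), 1153 (7.97%) had an unadjusted p under 0.05, 424 higher and 729 lower, and DESeq2 called 394 (2.72%). The smallest adjusted p was 0.0654, for *Gpnmb*, and the median log2 fold change over all genes was -0.30. Leaving out libraries in turn gave 0 calls without SD *Mof*+/- replicate 1, SD replicate 3 or HFD replicate 1, 25 without SD replicate 2, and 1813 without HFD replicate 2, where the lone HFD library is assumed to vary like the others. With 2 against 3 libraries, an exact two-sided permutation test of a single value cannot go below p = 0.2. When the fit was limited to 7158 genes with at least 10 counts in every library, edgeR called 26 of them (0.363%), 21 higher and 5 lower, of which 9 are muscle genes. This filter drops genes that are low in the shallow HFD replicate 1, so it bears on which genes stay and on the balance of directions, and the median log2 fold change was -0.01 in this fit. Those 5 were *Cyp2e1*, *Fbln1*, *Egr1*, *Zfp36* and *Dusp1*, and the 12 higher ones outside the muscle list included *Atp6v0d2*, *Gpnmb*, *Cxcl14*, *Aplnr* and *Trem2*. Also among them were *Cd300c2*, a myeloid receptor, at 2.74, 3.07 and 2.53 CPM on SD against 36.4 and 30.7 CPM on HFD, and the nuclear RNA *Neat1* at 136, 104 and 119.7 against 1629.7 and 747 CPM. *Plin5*, a lipid droplet coat gene of oxidative tissue, was at 6.52, 6.91 and 12.2 CPM on SD and 99.6 and 46.6 CPM on HFD, the actin regulator *Evl* at 7.34, 8.06 and 6.99 against 53.6 and 59.1 CPM, and the glypican *Gpc1* at 17.9, 29.7 and 36.4 against 164 and 202 CPM. Both HFD libraries lay above all SD libraries for these 5 genes, which are named because of this fit, chosen after the values were seen.

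The leading genes were the 12 in each direction with the widest gap, the margin, between any HFD and any SD library, with counts under 3 set to 3, among genes whose 95% exact counting intervals did not overlap either. Muscle, mitochondrial and sex-linked genes, immunoglobulin and T cell receptor segments and predicted genes named Gm or Rik were left out of this ranking. *Atp6v0d2* (chr4:19876841-19922605), a subunit of the proton pump of lysosomes and osteoclasts, was at 1.46, 1.82 and 2.53 CPM on SD and 74.7 and 73.8 CPM on HFD. *Gpnmb* (chr6:49036546-49070929), a lysosomal glycoprotein of lipid-loaded macrophages, was at 15.3, 16.6 and 13.4 CPM on SD and 236 and 306 CPM on HFD. Within each diet these libraries lay close together, and the diets were apart by at least 29.2-fold for *Atp6v0d2* and 14.2-fold for *Gpnmb*. In edgeR the log2 fold changes were 5.26 (standard error 0.60, adjusted p = 0.0819) and 4.16 (standard error 0.40, adjusted p = 0.0654), and both passed among the genes with at least 10 counts in every library (adjusted p = 0.00289 for each). *Adam8*, a metalloprotease of leukocytes, was at 2.97, 2.30 and 0.595 CPM on SD and 73.7 and 69.4 CPM on HFD, and *Il1rn*, the antagonist of the interleukin-1 receptor, at 0.524, 0 and 0 CPM on SD against 22.0 and 13.6 CPM on HFD. *Vsig8* (0, 0 and 0 CPM on SD, 19.2 and 15.9 on HFD) and the choline transporter *Slc5a7* (0.0582, 0.576 and 0 CPM on SD against 13.4 and 15.0 CPM on HFD) were near or under the detection limit on SD. The same order of the diets was found in *Mof*+/+ WAT for *Atp6v0d2* (2.04, 3.01 and 2.58 CPM on SD, 199 and 304 on HFD), *Gpnmb* (40.7, 3.56 and 73.8 CPM on SD against 1146 and 1849 CPM on HFD), *Adam8* (12.4, 4.79 and 42.3 CPM on SD against 189 and 270.5 CPM on HFD) and *Il1rn* (3.58, 1.37 and 5.29 CPM on SD against 53.1 and 64.6 CPM on HFD).

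*Tbx15* had the widest margin of these 24 genes, at least 40.9-fold against 3 counts in an SD library. The ubiquitin ligase gene *Trim67* was at 1.11, 0.576 and 0 CPM on SD and 19.2 and 58.8 CPM on HFD, and *Galnt6*, which starts mucin-type O-glycans, at 0.932, 0 and 0 CPM on SD against 23.9 and 16.5 CPM on HFD. In *Mof*+/+ WAT *Trim67* was at 23.8, 20.3 and 10.2 CPM on SD and 9.30 and 10.9 CPM on HFD, so its order there was not that of the *Mof*+/- libraries. The 3 remaining genes are known from striated muscle although the muscle list does not hold them. *Trim54*, a sarcomeric ubiquitin ligase, was at 0, 0 and 0 CPM on SD and 121 and 7.41 CPM on HFD, *Asb11* at 0, 0 and 0 CPM on SD against 93.8 and 6.69 CPM on HFD, and *Popdc3* at 0, 0 and 0 CPM on SD against 12.4 and 5.42 CPM on HFD. All 3 were higher in the muscle-rich replicate 1 than in replicate 2.

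Among the lower genes, *Cyp2e1* (chr7:140763739-140774987), a cytochrome P450 that oxidises ethanol and fatty acids, was at 2671, 3315 and 1761 CPM on SD and 43.1 and 45.9 CPM on HFD. The diets were apart by at least 38.4-fold, and its log2 fold change was -5.85 (standard error 0.74, adjusted p = 0.0854 in edgeR). It was also lower on HFD in *Mof*+/+ WAT, at 1392, 3082 and 2157 CPM against 74.6 and 16.0 CPM. *Agt*, which encodes angiotensinogen, was at 169.5, 331 and 344 CPM on SD and 7.66 and 14.5 CPM on HFD, and at 496, 664 and 322 CPM on SD against 61.6 and 37.0 CPM on HFD in *Mof*+/+ WAT. *Fbln1* (chr15:85205949-85286535), a fibulin of elastic fibres, was at 248, 229 and 207 CPM on SD and 19.2 and 10.8 CPM on HFD (log2 fold change -3.95, standard error 0.53, adjusted p = 0.0895 in edgeR). In *Mof*+/+ WAT *Fbln1* was at 56.5, 58.6 and 59.4 CPM on SD and 56.4 and 55.6 CPM on HFD, nearly the same level on both diets.

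Several leading lower genes had no count in 1 or both HFD libraries. *Sfrp4*, a secreted Wnt antagonist, was at 49.2, 71.2 and 63.9 CPM on SD and 0 and 0 CPM on HFD, at least 17.1-fold lower. *Sfrp2* of the same family was at 60.7, 63.6 and 37.5 CPM on SD against 0 and 3.07 CPM on HFD, and the matrix protein spondin, *Spon1*, at 364, 251 and 58.3 CPM on SD against 0 and 1.99 CPM on HFD. Both SFRP genes were far below their SD level also in the deeper HFD replicate 2. *Alb*, which encodes albumin, was at 60.8, 255 and 49.4 CPM on SD and 0 and 0 CPM on HFD, *Akr1cl*, an aldo-keto reductase, at 37.3, 42.9 and 52.5 CPM on SD against 0 and 0 CPM on HFD, and *Folh1*, a glutamate carboxypeptidase, at 35.9, 34.1 and 35.2 CPM on SD against 0 and 3.43 CPM on HFD. *Fcna*, a ficolin of resident macrophages, was at 363, 324 and 262 CPM on SD and 0.958 and 16.8 CPM on HFD. *Fcna* rested on 1 count in HFD replicate 1. *Hspd1-ps4* (37.5, 27.7 and 32.7 CPM on SD against 0 and 2.35 CPM on HFD) is a processed pseudogene and shares sequence with *Hspd1*, so its count is uncertain.

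**Figure D2:**
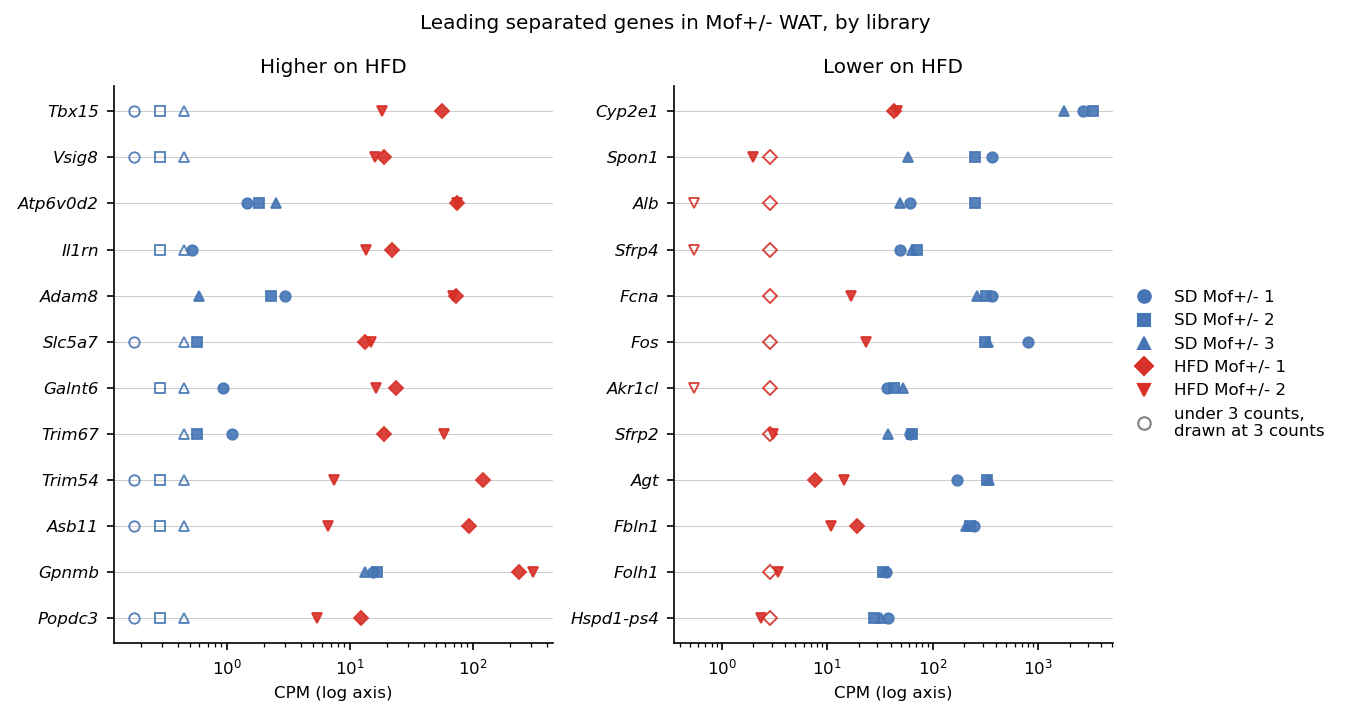
CPM of the 12 leading genes in each direction in the 5 *Mof*+/- libraries, on a log axis, with SD in blue and HFD in red and open symbols for values under 3 counts, drawn at 3 counts. The rule that chose the 24 genes admits only genes whose diets do not overlap. *Atp6v0d2* lies at 73.8 and 74.7 CPM and *Cyp2e1* at 43.1 and 45.9 CPM on HFD. *Trim54* and *Asb11* are far higher in replicate 1.

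Promoter windows of *Gpnmb*, the gene with the smallest adjusted p, and *Cyp2e1*, the leading lower gene, are shown for their sequence context. They are RefSeq windows of GRCm38.p6 of 300 bases around the start of the gene, 5′ to 3′ on the strand of the gene, at chr6:49036268-49036567 and chr7:140763569-140763868, both on the + strand. Capitals mark the motif TGAGTCA of AP-1 factors, read on the opposite strand, in *Gpnmb* and the TATA motif TATAAA in *Cyp2e1*.
Gpnmb: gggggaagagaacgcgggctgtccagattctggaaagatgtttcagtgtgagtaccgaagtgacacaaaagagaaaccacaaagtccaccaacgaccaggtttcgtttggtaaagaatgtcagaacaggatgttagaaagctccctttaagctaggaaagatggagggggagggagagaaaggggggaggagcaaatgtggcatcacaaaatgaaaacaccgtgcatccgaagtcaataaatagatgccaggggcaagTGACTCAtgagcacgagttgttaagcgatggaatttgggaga
Cyp2e1: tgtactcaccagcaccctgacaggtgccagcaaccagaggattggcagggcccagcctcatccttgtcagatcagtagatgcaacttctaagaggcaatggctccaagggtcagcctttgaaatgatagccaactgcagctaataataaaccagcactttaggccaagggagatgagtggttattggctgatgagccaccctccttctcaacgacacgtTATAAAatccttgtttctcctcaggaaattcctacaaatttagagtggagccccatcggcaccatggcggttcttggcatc
With both strands searched, 5.2% of all 32851 windows held TGAGTCA and 13.6% held TATAAA. Of 18 lipid-associated macrophage genes with a window, 4 held TGAGTCA in any window, *Gpnmb*, *Itgax*, *Mmp12* and *Slc37a2*. This counts genes, which had 22 windows, while the shares over all windows count windows. These matches describe letters in a window and not sites that a factor uses.

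Lipid-associated macrophage genes had the largest share of higher genes among the lists with at least 15 genes tested, skeletal muscle aside. Of 22 genes tested, 11 were higher on HFD and 0 lower, where 8.88% and 18.2% of all genes were, and the median log2 fold change was 1.40. Besides *Atp6v0d2* and *Gpnmb*, the macrophage elastase *Mmp12* was at 0.116, 1.73 and 14.4 CPM on SD and 259 and 144 CPM on HFD. The lipid droplet coat gene *Plin2* was at 338, 388 and 310.1 CPM on SD and 657 and 1269 CPM on HFD, and *Dcstamp*, which drives the fusion of macrophages, at 0.233, 0 and 0 CPM on SD against 11.5 and 2.35 CPM on HFD. The other higher genes were *Trem2*, *Lgals3*, *Itgax*, *Spp1*, *Capg* and *Nceh1*, named after their values were seen. *Trem2*, a lipid receptor of macrophages, was at 21.5, 21.4 and 15.5 CPM on SD and 86.2 and 247 CPM on HFD (log2 fold change 3.06, standard error 0.50, adjusted p = 0.114 in edgeR, and 0.0267 among genes with at least 10 counts in every library). *Lgals3*, which encodes galectin-3, was at 208, 154 and 169.8 CPM on SD against 717 and 1073 CPM on HFD, and *Itgax*, which encodes CD11c, at 2.21, 3.74 and 11.2 CPM on SD against 36.4 and 41.8 CPM on HFD. *Spp1*, which encodes osteopontin, was at 0.0582, 3.07 and 2.97 CPM on SD against 14.4 and 9.40 CPM on HFD, the actin capping gene *Capg* at 63.1, 55.5 and 95.8 CPM on SD against 207 and 264 CPM on HFD, and the cholesterol ester hydrolase gene *Nceh1* at 11.6, 8.73 and 8.48 CPM on SD against 15.3 and 34.3 CPM on HFD. Replicate 2 was the higher HFD library for most of these genes, and *Mmp12*, *Dcstamp*, *Spp1* and, by a small difference, *Atp6v0d2* were higher in replicate 1.

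The remaining 11 genes of the list overlapped between the diets. Cathepsins and *Cd36* were lowest in HFD replicate 1, as the plot of this list shows. The summed level of the list was 9621, 11112 and 10805 CPM on SD and 7060 and 19268 CPM on HFD, so the sum overlapped although no single gene was separated lower. Without replicate 1, 19 of the 22 genes were higher on HFD in replicate 2, where 31% of all genes were, and 0 were lower. In replicate 1 alone, 12 were higher and 8 lower, where 20.0% and 54.0% of the genes tested without replicate 2 were. In *Mof*+/+ WAT, 20 of the 22 were higher and 1 lower on HFD, where 21.8% of the genes tested in both genotypes were higher and 28.4% lower, and the median log2 fold change was 2.97. *Trem2*, for example, was at 18.0, 3.97 and 25.7 CPM on SD and 313 and 588 CPM on HFD in *Mof*+/+ WAT.

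**Figure D3:**
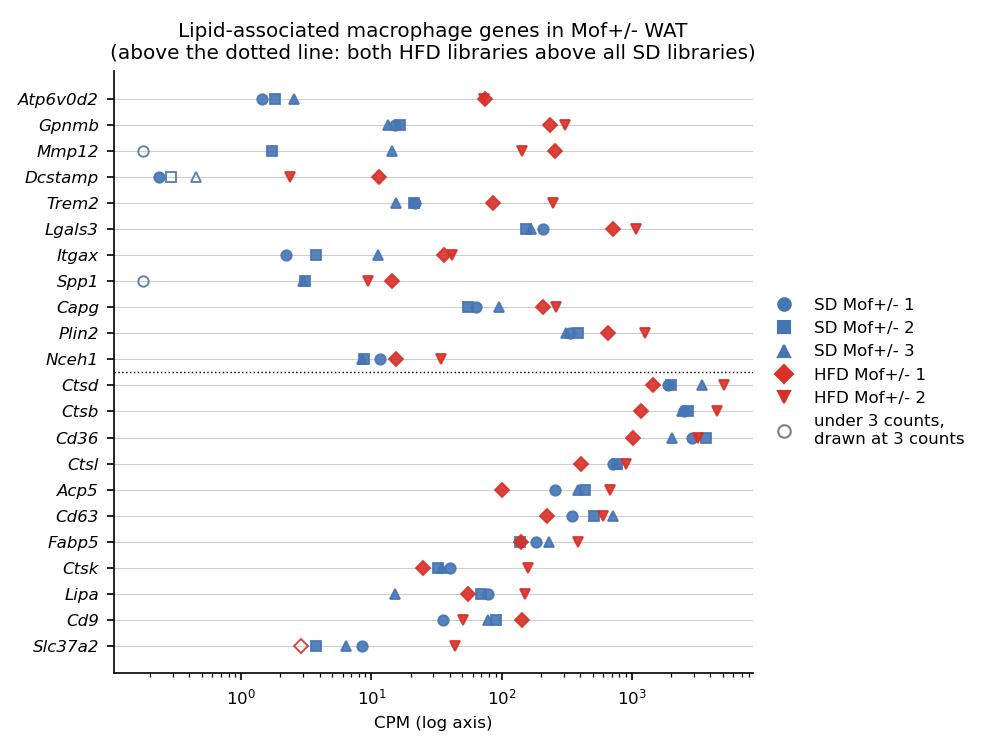
CPM of the 22 lipid-associated macrophage genes tested, in the 5 *Mof*+/- libraries on a log axis, with open symbols for values under 3 counts. The 11 genes above the dotted line have both HFD libraries above all SD libraries, and below it HFD replicate 1 is the lowest library for genes such as *Ctsb* and *Ctsk* while replicate 2 is the highest.

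Of 20 general macrophage markers tested, 4 were higher and 5 lower on HFD, against 8.88% and 18.2% of all genes, and the median log2 fold change was -0.14. *Tyrobp*, an adaptor of myeloid receptors, was at 88.1, 90.3 and 91.8 CPM on SD and 147 and 354 CPM on HFD. The scavenger receptor gene *Cd68* was at 66.7, 55.9 and 39.6 CPM on SD against 78.5 and 139 CPM on HFD, and *Lyz2*, which encodes lysozyme, at 687, 677 and 602 CPM on SD against 915 and 1383 CPM on HFD. Among the 5 lower markers, the haemoglobin scavenger receptor *Cd163* was at 143, 95.5 and 48.6 CPM on SD and 33.5 and 16.1 CPM on HFD. *Folr2*, a folate receptor, was at 173, 133 and 118 CPM on SD against 4.79 and 83.5 CPM on HFD, and *Mertk*, a receptor for dying cells, at 27.9, 21.5 and 7.58 CPM on SD against 0 and 2.17 CPM on HFD. *Itgam*, which encodes CD11b, was at 17.2, 15.3 and 20.1 CPM on SD and 4.79 and 4.70 CPM on HFD, on 5 and 26 counts. The summed markers were 2537 to 2995 CPM on SD and 2077 and 4469 CPM on HFD, which overlap, and in replicate 2 alone 10 were higher and 6 lower, against 31% and 24.8% of all genes. In *Mof*+/+ WAT, 16 of the 20 were higher and 2 lower on HFD, against 21.8% and 28.4% of all genes.

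Of 28 innate inflammation genes tested, 7 were higher and 4 lower, against 8.88% and 18.2% of all genes. *Saa3*, an acute-phase protein of adipose tissue, was at 1.75, 7.77 and 9.37 CPM on SD and 34.5 and 122 CPM on HFD, the Toll-like receptor gene *Tlr13* at 2.68, 0 and 0 CPM on SD against 32.6 and 28.9 CPM on HFD, and the inflammasome adaptor *Pycard* at 12.3, 14.0 and 14.6 CPM on SD against 52.7 and 27.5 CPM on HFD. *Socs3*, an inhibitor of cytokine signalling, was at 222, 50.8 and 60.8 CPM on SD against 24.9 and 3.62 CPM on HFD, and *Nfkbia*, the inhibitor of NF-κB, at 107, 80.7 and 214 CPM on SD against 52.7 and 51.0 CPM on HFD. In replicate 2 alone, 15 were higher and 4 lower, against 31% and 24.8% of all genes. In *Mof*+/+ WAT, 14 of the 28 were higher and 2 lower, against 21.8% and 28.4% of all genes. Of 21 chemokine genes and receptors tested, 3 were higher and 6 lower, against 8.88% and 18.2% of all genes. *Cxcl14* was at 7.98, 13.4 and 8.03 CPM on SD and 72.8 and 118 CPM on HFD (adjusted p = 0.114 in edgeR, and 0.0214 among genes with at least 10 counts in every library), while in *Mof*+/+ WAT it was at 12.01, 22.1 and 25.4 CPM on SD against 20.5 and 26.9 CPM on HFD, which overlap. The neutrophil attractant *Cxcl1* was at 27.7, 8.92 and 78.5 CPM on SD against 0 and 1.63 CPM on HFD in *Mof*+/- WAT. Of the 21 chemokine genes and receptors, 12 were higher and 1 lower in *Mof*+/+ WAT, against 21.8% and 28.4% of all genes.

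Complement genes were mostly lower on HFD or overlapped. Of 19 genes tested, 1 was higher and 10 lower, against 8.88% and 18.2% of all genes. In replicate 2 alone, 6 were higher and 10 lower, against 31% and 24.8% of all genes, and in *Mof*+/+ WAT 8 were higher and 8 lower, against 21.8% and 28.4% of all genes. Adipsin, *Cfd*, the protease that starts the alternative pathway and a product of adipocytes, was at 12175, 16519 and 15248 CPM on SD and 578 and 1842 CPM on HFD, and its log2 fold change was -3.65 (standard error 1.05, adjusted p = 0.417 in edgeR). The central component *C3* was at 3777, 2372 and 1674 CPM on SD and 697 and 625 CPM on HFD, *C6* of the membrane attack complex at 56.0, 95.6 and 84.6 CPM on SD against 14.4 and 18.3 CPM on HFD, and *C2* of the classical pathway at 71.1, 73.6 and 80.3 CPM on SD against 7.66 and 33.8 CPM on HFD. The summed level was 20350, 23049 and 20662 CPM on SD and 3220 and 7020 CPM on HFD, which do not overlap (exact permutation p = 0.2, two-sided, the smallest this design allows). Most of the SD sum is *Cfd*, which is also in the adipocyte and adipokine lists and was lower on HFD also in *Mof*+/+ WAT, at 9901, 12413 and 12380.5 against 624 and 533 CPM, whereas *C3* overlapped there, at 1215, 1203 and 1606 CPM on SD against 1787 and 1502 CPM on HFD.

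Several abundant adipocyte genes lay below their SD level in both HFD libraries. Of 15 adipocyte markers tested, 0 were higher and 7 lower, against 8.88% and 18.2% of all genes, and the median log2 fold change was -1.12. In replicate 2 alone, 3 were higher and 7 lower, against 31% and 24.8% of all genes. Adiponectin, *Adipoq*, was at 5923, 5983 and 6035 CPM on SD and 879 and 3738 CPM on HFD. Resistin, *Retn*, was at 3429, 3232 and 4287 CPM on SD against 366 and 1462 CPM on HFD, and the beta-3 adrenergic receptor *Adrb3*, which drives lipolysis, at 457, 558 and 335 CPM on SD against 89.1 and 152 CPM on HFD. *Pparg*, the master regulator of adipocyte differentiation, was at 269, 219 and 145 CPM on SD and 46.9 and 121 CPM on HFD, and the carbonic anhydrase *Car3* at 27883, 26796 and 20251 CPM on SD against 6957 and 10014 CPM on HFD. For each of these genes HFD replicate 1 was the lower HFD library. Leptin, *Lep*, overlapped at 834, 880.0 and 1028 CPM on SD and 938 and 2246 CPM on HFD. This overlap depended on the totals used. On totals that leave out muscle and mitochondrial genes, the log2 CPM of HFD replicate 1 moved by 0.64. *Lep* then lay above all SD libraries in both HFD libraries. In *Mof*+/+ WAT it was higher on HFD (1115, 1812 and 634 against 6212 and 4599 CPM). The interaction of diet and genotype was not called for *Lep* (log2 difference -1.55, adjusted p = 0.394 in edgeR). Of 21 adipokines tested, 0 were higher and 7 lower, among them *Rbp4*, the retinol carrier, at 884, 666 and 848 CPM on SD and 50.7 and 488 CPM on HFD. The summed adipocyte markers were 94035 to 114845 CPM on SD and 27703 and 63209 CPM on HFD. In the *Mof*+/+ libraries of both diets they were 43132 to 65128 CPM, a range that holds HFD *Mof*+/- replicate 2. Of the 15 markers, 6 were higher and 8 lower on HFD in *Mof*+/+ WAT, against 21.8% and 28.4% of all genes.

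The insulin-responsive glucose transporter GLUT4, *Slc2a4*, which muscle also expresses, was at 211, 227 and 214 CPM on SD and 205 and 202 CPM on HFD. The diets did not overlap, but the margin was 1.03-fold and the log2 fold change -0.09 (standard error 0.39, adjusted p = 0.961 in edgeR), smaller than its error. On totals that leave out muscle and mitochondrial genes, the diets overlapped for *Slc2a4*, with HFD replicate 1 above the SD libraries. In *Mof*+/+ WAT it was at 173, 242 and 176 CPM on SD and 93.4 and 65.3 CPM on HFD, and the interaction term of 1.09 was not called (adjusted p = 0.355). *Mef2c*, a factor of muscle and of the *Slc2a4* promoter, was at 13.1, 14.8 and 16.1 CPM on SD and 119.7 and 26.9 CPM on HFD, highest in the muscle-rich replicate 1. *Mef2d*, also highest there, was at 45.5, 35.6 and 34.9 CPM on SD against 148 and 61.1 CPM on HFD. The insulin receptor substrate *Irs1* (62.9, 37.5 and 9.96 CPM on SD against 14.4 and 34.3 CPM on HFD) and the coactivator *Ppargc1a* (1.57, 2.69 and 0 CPM on SD against 0 and 6.51 CPM on HFD) overlapped between the diets. Of 11 genes of this network tested, 2 were higher, *Mef2c* and *Mef2d*, and 4 lower, against 8.88% and 18.2% of all genes.

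Genes of lipid synthesis and oxidation mostly overlapped between the diets, and their counts are to be read against the 8.88% and 18.2% of all genes that were higher and lower. Of 21 lipogenic genes tested, 2 were higher and 3 lower, near those shares, with *Acacb*, the acetyl-CoA carboxylase of the mitochondrial surface, at 36.7, 30.5 and 28.6 CPM on SD and 98.6 and 62.9 CPM on HFD. The desaturase genes *Fads1* (118, 86.5 and 67.5 CPM on SD against 33.5 and 38.9 CPM on HFD) and *Fads2* (13.9, 9.40 and 4.46 CPM on SD against 0 and 0.542 CPM on HFD) were lower. In *Mof*+/+ WAT, 0 of the 21 were higher and 18 lower on HFD, against 21.8% and 28.4% of all genes. Of 21 lipolysis genes, 0 were higher and 4 lower, the latter near the share of all genes, and of 23 fatty acid oxidation genes, 4 were higher and 1 lower (11 and 1 on totals that leave out muscle and mitochondrial genes, where 12.2% and 16.9% of all genes were), with the uncoupling protein gene *Ucp3*, also expressed in muscle, at 16.4, 24.5 and 19.3 CPM on SD and 85.2 and 55.3 CPM on HFD. Of 41 nuclear genes of the respiratory chain, 8 were higher and 1 lower, with margins up to the 1.45-fold of *Uqcrc1* (233, 269 and 381 CPM on SD against 609 and 553 CPM on HFD), and with totals that leave out muscle and mitochondrial genes 14 were higher and 0 lower, against the same 12.2% and 16.9%. Muscle is rich in these genes, and replicate 1 holds 11.2% muscle and 24.8% mitochondrial counts, whose part in these values was not tested. The sum overlapped (12263 to 17685 CPM on SD, 17368 and 18859 CPM on HFD). Of 12 thermogenic genes tested, 3 were higher and 1 lower, while the median log2 fold change was -0.63 and the sum of the list was 622 to 867 CPM on SD and 315 and 481 CPM on HFD, lower without overlap. Among the higher genes, *Cidea*, a lipid droplet gene of brown fat, was at 1.28, 3.45 and 1.04 CPM on SD and 35.4 and 60.4 CPM on HFD, *Prdm16*, a factor of brown adipocytes, at 3.67, 2.97 and 2.83 CPM on SD against 11.5 and 17.2 CPM on HFD, and *Ucp1*, the uncoupling protein of brown fat, at 0, 0.576 and 0 CPM on SD against 81.4 and 3.62 CPM on HFD. *Ucp1* was thus mostly found in HFD replicate 1, with 20 counts in replicate 2.

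Part of the endothelial genes lay higher on HFD. Of 20 tested, 6 were higher and 0 lower in *Mof*+/- WAT, where 8.88% and 18.2% of all genes were, with a median log2 fold change of 0.34. In *Mof*+/+ WAT 0 were higher and 19 lower, where 21.8% and 28.4% of all genes were. *Aplnr* (chr2:85136225-85139923), the apelin receptor of vein and tip cells, was at 3.79, 1.92 and 2.08 CPM on SD and 46.9 and 43.7 CPM on HFD, and at 209.9, 104 and 60.01 CPM on SD against 57.8 and 43.8 CPM on HFD in *Mof*+/+ WAT. Its log2 fold change was 4.12 (standard error 0.71, adjusted p = 0.114 in edgeR). *Cdh5*, the cadherin of endothelial junctions, was at 43.2, 31.6 and 31.2 CPM on SD and 74.7 and 94.4 CPM on HFD, and at 572, 315 and 253 CPM on SD against 130.3 and 107 CPM on HFD in *Mof*+/+ WAT. The receptor gene *Tie1* was at 20.6, 19.2 and 14.4 CPM on SD against 53.6 and 46.8 CPM on HFD, and *Esam* of tight junctions at 41.1, 31.3 and 31.7 CPM on SD against 95.8 and 64.9 CPM on HFD. Grouped by the column headings, the log2 fold change of *Cdh5* turned from 1.25 to -0.024 and the log2 fold change of Aplnr was 1.47. The HFD libraries of both genotypes were close for *Cdh5* and *Aplnr*, while the SD libraries of the genotypes lay far apart. The interaction of diet and genotype was called for *Aplnr* and not for *Cdh5* (2.81, adjusted p = 0.0936 in edgeR) or *Tie1* (3.30, adjusted p = 0.112). Without replicate 1, 9 endothelial genes were higher and 1 lower, where 31% and 24.8% of all genes were. Of 36 angiogenesis genes, which include *Aplnr* and *Tie1*, 9 were higher and 5 lower, against 8.88% and 18.2% of all genes, and in *Mof*+/+ WAT 4 were higher and 25 lower, against 21.8% and 28.4% of all genes. The Notch ligand *Dll4*, named after its values were seen, was at 5.53, 6.43 and 5.06 CPM on SD and 118 and 10.1 CPM on HFD, where replicate 1 stood alone, and *Vegfd* was at 46.2, 72.4 and 58.3 CPM on SD against 15.3 and 26.0 CPM on HFD.

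Of 20 progenitor markers tested, 0 were higher and 9 lower, where 8.88% and 18.2% of all genes were, and the median log2 fold change was -1.61. In replicate 2 alone, 4 were higher and 11 lower, where 31% and 24.8% of all genes were. *Pi16*, a marker of early progenitors, was at 336, 136 and 188 CPM on SD and 56.5 and 44.7 CPM on HFD, *Dcn*, which encodes decorin, at 2761, 2229 and 989 CPM on SD against 319.8 and 448 CPM on HFD, and *Islr* at 218, 115 and 138 CPM on SD against 14.4 and 36.9 CPM on HFD. Their summed level was 15973 to 20519 CPM on SD and 3775 and 16079 CPM on HFD, which overlap. Of 35 matricellular genes tested, 2 were higher and 16 lower, against 8.88% and 18.2% of all genes, and 8 of those 16 had no count in replicate 1. Replicate 2 alone gave 5 higher and 18 lower, against 31% and 24.8% of all genes. *Thbs1*, which encodes thrombospondin-1, was at 196, 188 and 129 CPM on SD and 36.4 and 28.6 CPM on HFD, and *Ccn3*, a growth regulator of the CCN family, at 55.7, 27.6 and 16.7 CPM on SD against 0 and 0 CPM on HFD. *Ccn5* of the same family lay the other way, at 2.50, 1.25 and 0.149 CPM on SD against 15.3 and 20.8 CPM on HFD. In *Mof*+/+ WAT 10 of 34 matricellular genes were higher and 8 lower, against 21.8% and 28.4% of all genes.

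Of 37 genes of Wnt signalling tested, 3 were higher and 14 lower, against 8.88% and 18.2% of all genes, and 10 of the 14 had no count in replicate 1. Replicate 2 alone gave 8 higher and 17 lower, against 31% and 24.8% of all genes. Among ligands, *Wnt5a* was at 25.6, 23.9 and 3.87 CPM on SD and 58.4 and 27.7 CPM on HFD. The R-spondin gene *Rspo1*, also a mesothelial marker, was at 55.1, 42.6 and 48.2 CPM on SD against 18.2 and 0 CPM on HFD. Among receptors, *Fzd2* was at 17.7, 23.1 and 25.9 CPM on SD against 0 and 5.06 CPM on HFD, *Fzd8* at 7.69, 7.67 and 9.81 CPM on SD against 0 and 2.89 CPM on HFD, and *Fzd9*, also known from muscle, at 0, 0.576 and 0 CPM on SD against 35.4 and 2.89 CPM on HFD. The secreted inhibitors *Sfrp2* and *Sfrp4* had the widest margins of the list, 12.2-fold and 17.1-fold. Of 17 mesothelial markers tested, 0 were higher and 6 lower, against 8.88% and 18.2% of all genes, and in replicate 2 alone 1 was higher and 14 lower, against 31% and 24.8% of all genes. Named after their values were seen, *Upk3b* was at 169.8, 131 and 65.9 CPM on SD and 47.9 and 0 CPM on HFD and *Msln*, which encodes mesothelin, at 43.6, 53.3 and 32.1 CPM on SD against 47.9 and 0 CPM on HFD, so that replicate 2 held neither of these defining mesothelial genes while replicate 1 did. Interstitial collagens (0 higher and 3 lower of 18) and basement membrane genes (0 and 3 of 18) were near the shares of all genes.

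Of 19 clock genes tested, 4 were higher and 4 lower on HFD (21.1% each), where 8.88% and 18.2% of all genes were, so the lower share was near that of all genes. Beyond counting intervals, 1 was higher and 2 were lower. *Arntl* (chr7:113207465-113314126), which encodes the activator BMAL1, was at 1.51, 1.53 and 1.78 CPM on SD and 22.0 and 8.13 CPM on HFD, and its partner *Npas2* at 1.51, 1.15 and 2.38 CPM on SD against 5.75 and 3.43 CPM on HFD. The repressor *Cry1* was at 2.15, 4.89 and 0.446 CPM on SD against 6.70 and 10.7 CPM on HFD and *Nfil3*, a repressor of D-box genes, at 4.13, 5.85 and 8.63 CPM on SD against 41.2 and 10.3 CPM on HFD. *Arntl* and these 3 genes lay above all SD libraries in both HFD libraries. *Dbp*, a D-box activator and output of the clock, was at 188, 138 and 110.0 CPM on SD and 0 and 36.3 CPM on HFD. *Nr1d1*, which encodes REV-ERB alpha, the repressor of *Arntl*, was at 294, 249 and 251 CPM on SD against 59.4 and 85.0 CPM on HFD, its relative *Nr1d2* at 81.9, 82.8 and 49.1 CPM on SD against 32.6 and 39.4 CPM on HFD, and *Bhlhe40* at 57.4, 37.4 and 42.7 CPM on SD against 6.70 and 36.0 CPM on HFD. None of the 8 passed edgeR's adjusted threshold, with adjusted p from 0.224 for *Nr1d1* to 0.822 for *Npas2*. In *Mof*+/+ WAT, *Arntl* was at 35.6, 45.3 and 25.3 CPM on SD and 19.6 and 18.6 CPM on HFD, *Dbp* at 9.96, 12.9 and 11.7 CPM on SD against 12.01 and 15.2 CPM on HFD, and *Nr1d1* at 10.2, 56.6 and 31.9 CPM on SD against 20.9 and 10.8 CPM on HFD. The SD *Mof*+/- libraries thus lay outside the other 3 groups for *Arntl*, *Dbp* and *Nr1d1*. The hour of dissection is not given in the sources used here, and its part in these values was not tested.

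Promoter windows of the 3 higher clock genes that hold a motif read by clock factors are shown, from RefSeq on GRCm38.p6, each 300 bases and 5′ to 3′ on the strand of the gene. *Arntl* (chr7:113207261-113207560, + strand) and *Nfil3* (chr13:52980990-52981289, − strand, motif read on the opposite strand) hold TAGGTCA, the element of ROR and REV-ERB receptors, and *Cry1* (chr10:85185005-85185304, − strand) holds the E-box CACGTG. Capitals mark the motif.
Arntl: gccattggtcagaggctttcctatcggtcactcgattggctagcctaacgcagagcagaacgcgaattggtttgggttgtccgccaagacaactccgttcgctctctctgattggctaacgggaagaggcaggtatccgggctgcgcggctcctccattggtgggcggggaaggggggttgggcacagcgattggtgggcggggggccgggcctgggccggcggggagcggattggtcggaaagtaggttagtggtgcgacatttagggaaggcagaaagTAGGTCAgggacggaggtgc
Nfil3: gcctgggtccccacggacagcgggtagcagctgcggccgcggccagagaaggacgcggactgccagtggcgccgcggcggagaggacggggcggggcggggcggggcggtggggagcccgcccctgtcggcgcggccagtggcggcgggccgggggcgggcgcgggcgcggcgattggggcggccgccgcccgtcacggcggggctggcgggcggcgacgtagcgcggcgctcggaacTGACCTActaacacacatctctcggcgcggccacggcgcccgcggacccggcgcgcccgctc
Cry1: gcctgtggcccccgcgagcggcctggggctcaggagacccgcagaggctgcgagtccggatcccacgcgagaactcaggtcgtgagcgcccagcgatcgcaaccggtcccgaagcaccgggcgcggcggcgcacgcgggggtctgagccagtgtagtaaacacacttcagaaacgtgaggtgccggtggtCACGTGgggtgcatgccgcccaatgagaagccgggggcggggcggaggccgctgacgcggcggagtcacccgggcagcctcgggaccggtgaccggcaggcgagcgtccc
Over all 32851 windows, 2.61% held TAGGTCA and 7.15% CACGTG on either strand. Of the 16 tested clock genes with a window, 2 held TAGGTCA, *Arntl* and *Nfil3*, and 5 held CACGTG, *Bhlhe41*, *Ciart*, *Cry1*, *Per1* and *Tef*. These are counts of genes with the motif in any of their 21 windows and not shares of windows. *Arntl* has 2 windows, and a window with the motif is shown.

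Immediate-early and stress genes, which respond within minutes to signals and handling, had the largest share of lower genes among the lists with at least 15 genes tested. Of 23 tested, 4 were higher and 13 lower, against 8.88% and 18.2% of all genes. In replicate 2 alone, 4 were higher and 14 lower, against 31% and 24.8% of all genes. *Fos* (chr12:85473890-85477273), a subunit of AP-1, was at 811, 313 and 335 CPM on SD and 0 and 23.5 CPM on HFD. *Egr1*, a zinc finger factor, was at 483, 148 and 351 CPM on SD and 12.4 and 22.4 CPM on HFD, and its log2 fold change was -4.23 (standard error 0.68, adjusted p = 0.114 in edgeR). The mRNA decay factor *Zfp36* was at 541, 287 and 447 CPM on SD and 30.6 and 56.9 CPM on HFD and the kinase phosphatase *Dusp1* at 315, 163 and 247 CPM on SD against 20.1 and 36.0 CPM on HFD, both also with adjusted p = 0.114. *Egr1* (0.0267), *Zfp36* (0.033) and *Dusp1* (0.033) passed by their adjusted p in edgeR among the genes with at least 10 counts in every library. *Jun* (697, 248 and 182 CPM on SD, 61.3 and 53.0 on HFD), *Junb* (373, 129 and 405 CPM on SD against 42.1 and 46.3 CPM on HFD) and *Ier2* (118, 68.3 and 221 CPM on SD against 17.2 and 31.6 CPM on HFD), named after their values were seen, had the same order. The stress factor genes *Atf3* (62.6, 19.9 and 40.6 CPM on SD against 128 and 64.9 CPM on HFD) and *Ddit3* (15.2, 16.9 and 21.9 CPM on SD against 32.6 and 61.6 CPM on HFD) lay above all SD libraries instead. In *Mof*+/+ WAT *Fos* was at 36.5, 105 and 78.5 CPM on SD and 54.4 and 79.6 CPM on HFD and *Egr1* at 65.9, 95.9 and 56.3 CPM on SD against 46.6 and 52.6 CPM on HFD. The list summed to 3505 to 5224 CPM in the SD *Mof*+/- libraries, 1717 and 2160 CPM in the HFD *Mof*+/- libraries, and 1928 to 2607 CPM in the 5 *Mof*+/+ libraries, so the SD *Mof*+/- group was again the group that stood apart.

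**Figure D4:**
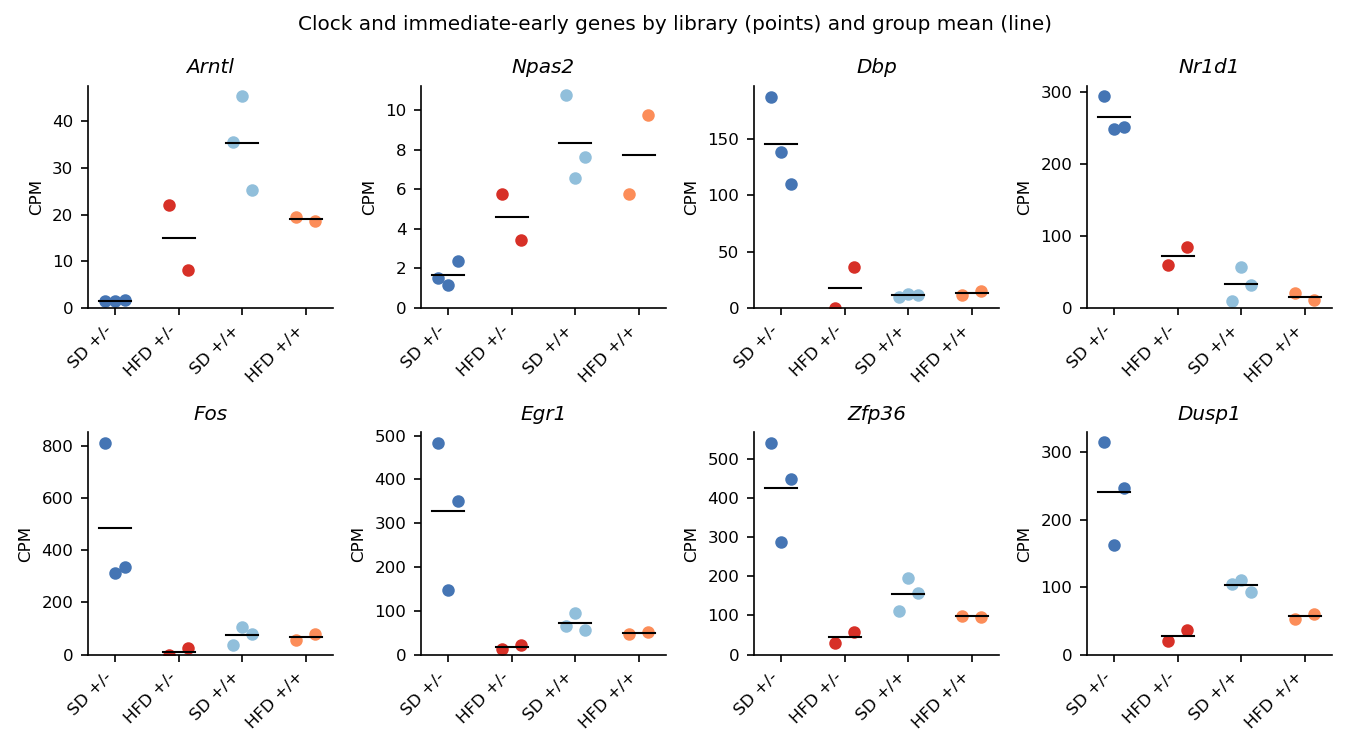
CPM of 4 clock genes (upper row) and 4 immediate-early genes (lower row) in all 10 libraries, with 1 point per library and a line at the group mean. The SD *Mof*+/- libraries are the lowest for *Arntl* at 1.51 to 1.78 CPM and the highest for *Dbp*, *Nr1d1*, *Fos*, *Egr1*, *Zfp36* and *Dusp1*, and the HFD *Mof*+/- libraries lie nearer to the *Mof*+/+ libraries.

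Of 34 cell cycle genes tested, 4 were higher and 5 lower, near the 8.88% and 18.2% of all genes. In *Mof*+/+ WAT 32 were higher and 0 lower, where 21.8% and 28.4% of all genes were. *Mki67* was at 5.01, 3.93 and 0 CPM on SD and 30.6 and 9.58 CPM on HFD, the ribonucleotide reductase gene *Rrm2* at 1.28, 0.767 and 0 CPM on SD against 24.9 and 7.59 CPM on HFD, and the ubiquitin-conjugating gene *Ube2c* at 2.74, 6.23 and 3.87 CPM on SD against 23.0 and 12.1 CPM on HFD. The cyclin gene *Ccnd2* was lower, at 378, 335 and 272 CPM on SD and 124 and 182 CPM on HFD. In replicate 2 alone, 20 were higher and 8 lower, where 31% and 24.8% of all genes were. Of 13 genes of the MSL and NSL complexes tested, 1 was higher and 0 lower in both HFD libraries, against 8.88% and 18.2% of all genes.

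**Figure D5:**
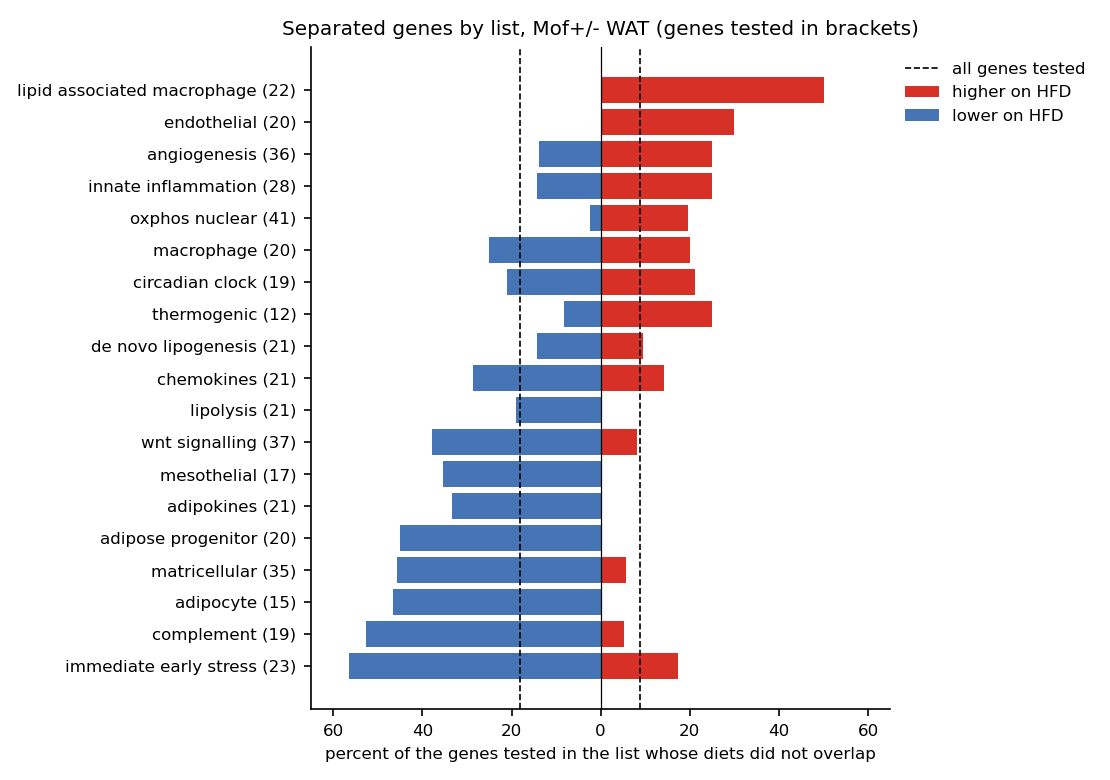
Share of the tested genes of 19 lists that were separated between the diets in *Mof*+/- WAT, higher to the right and lower to the left, with dashed lines at the shares of all genes, 8.88% and 18.2%. The lipid-associated macrophage list reaches 50% on the higher side with 0 lower genes, and the immediate-early and complement lists reach 56.5% and 52.6% on the lower side.

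The response to diet was set beside that of *Mof*+/+ WAT over 13854 genes tested in both genotypes. Of 1249 genes higher on HFD in *Mof*+/- WAT, 420 (33.6%) were also higher and 259 (20.7%) lower in *Mof*+/+ WAT, where 21.8% of all these genes were higher and 28.4% lower. The 420 genes were 13.9% of the *Mof*+/+ higher list. Of 2481 genes lower in *Mof*+/- WAT, 793 (32.0%) were also lower and 389 (15.7%) higher in *Mof*+/+ WAT, and the 793 genes were 20.1% of the *Mof*+/+ lower list. No test was made of these shares.

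The difference between the genotypes in the response to diet was tested with the interaction term of edgeR over all 10 libraries. It passed an adjusted p of 0.05 for 14 of 16758 genes (0.0835%), 2 of which were *Ddx3y* and *Eif2s3y*. *Acacb* (chr5:114146535-114250761) was higher on HFD in *Mof*+/- and lower in *Mof*+/+ WAT, at 320.2, 241 and 209 CPM on SD and 18.6 and 21.5 CPM on HFD in the latter (interaction 4.90 on the log2 scale, standard error 0.51, adjusted p = 0.004). *Aplnr* had an interaction of 5.27 (standard error 0.77, adjusted p = 0.034). *Itgam* was at 13.9, 10.3 and 11.9 CPM on SD and 88.2 and 136 CPM on HFD in *Mof*+/+ WAT, with both HFD libraries higher there and lower in *Mof*+/- WAT (interaction -5.27, standard error 0.62, adjusted p = 0.00631). *Anxa1*, the mediator annexin A1, was at 507, 489 and 411 CPM on SD and 408 and 460.4 CPM on HFD in *Mof*+/- WAT and at 272, 287 and 273 CPM on SD against 1491 and 1611 CPM on HFD in *Mof*+/+ WAT, so that it was level in the former and higher on HFD in the latter (interaction -2.73, adjusted p = 0.0353). *Fbln1*, *Thbs1*, the matrix gene *Postn* (249, 273 and 235 CPM on SD against 44.0 and 80.6 CPM on HFD), the eosinophil attractant *Ccl11* (147, 135 and 197 CPM on SD against 43.1 and 80.6 CPM on HFD) and *Fgf13* (49.1, 49.3 and 53.8 CPM on SD against 19.2 and 43.0 CPM on HFD) were lower on HFD in *Mof*+/- WAT, as were *Sfrp4*, *C130026I21Rik* and *Gm2619*. The number of calls depended on single libraries, with 3 genes without HFD *Mof*+/+ replicate 1, 4 without HFD *Mof*+/+ replicate 2, 6 to 8 without 1 SD *Mof*+/- library, 7 to 10 without 1 SD *Mof*+/+ library, 38 without HFD *Mof*+/- replicate 1 and 3169 without replicate 2, where replicate 1 alone stands for the HFD *Mof*+/- group and is assumed to vary like the other groups.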

How the data were processed

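mRNA-seq was made from whole visceral WAT, and the deposited files hold raw counts of reads per gene, which the authors obtained with STAR and featureCounts (Subread 1.5.0-p1) on GRCm38, per the labels, and tested with DESeq2 (1.26 in the submitters' processing notes). Libraries were not strand-marked, so overlapping genes cannot be told apart. Groups follow the sample labels. Headings of the count columns swap SD replicate 3 of one genotype with that of the other, give the HFD *Mof*+/- libraries another numbering, and were used only as an alternative. Of 47937 genes listed, 47310 had a position in the GENCODE annotation used here.

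Counts were turned into CPM on library totals. Genes with at least 10 counts in at least 2 of the 5 libraries were tested with edgeR 4.0.16 in R 4.3.3 (TMM scaling, quasi-likelihood test, Benjamini-Hochberg adjustment, threshold 0.05), with both *Mof*+/- groups in the fit, and the interaction was fitted over all 10 libraries. DESeq2 1.42.0, other scalings, filters, and each library left out were alternatives. The code was tested on simulated data. Separation, margins, exact permutation tests (scipy 1.17.1) and exact binomial intervals were computed from counts and cover counting error only where intervals are given. The study calls the SD libraries triplicates and the HFD libraries duplicates, and the animals are not named.

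The comparison, its 49 gene lists, and the rules were chosen with earlier results of these data known. Named were the 12 leading genes each way, up to 4 separated genes with the largest margin per direction of a list, 9 genes of the GLUT4 and adipocyte theme, the 6 most abundant muscle genes and the genes of the interaction. *Trem2*, *Lgals3*, *Itgax*, *Spp1*, *Capg*, *Nceh1*, *Ctsb*, *Ctsk*, *Cd36*, *Slc37a2*, *Dll4*, *Jun*, *Junb*, *Ier2*, *Upk3b*, *Msln*, *Cd300c2*, *Neat1*, *Evl*, *Gpc1*, the depot genes and the genes named for a motif alone fall outside this rule and were chosen after their values were seen.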

Additional observations from a re-analysis of the deposited data

Results flagged for a closer look

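The results below were set apart because the response to diet differed between *Mof*+/- and *Mof*+/+ WAT in edgeR's interaction term (adjusted p under 0.05). The difference is the log2 fold change of HFD over SD in *Mof*+/- minus that in *Mof*+/+ WAT. It was 4.90 for *Acacb* and 5.27 for *Aplnr*, the 2 genes higher on HFD in *Mof*+/- and lower in *Mof*+/+ WAT. It was -4.06 for *Fbln1*, -3.44 for *Thbs1*, -3.10 for *Postn* and -3.05 for *Ccl11*, and -2.73 for *Anxa1*, -5.27 for *Itgam* and -4.35 for *Fgf13*. *Thbs1*, *Postn*, *Ccl11*, *Itgam* and *Fgf13* lay below the SD level on HFD in both *Mof*+/- libraries and above it in both *Mof*+/+ libraries.

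The fitted values of -14.04 for *Sfrp4*, -14.62 for *C130026I21Rik* and -21.91 for *Gm2619* are not sizes, since a group of each was at 0 or nearly so. *Sfrp4* was at 1.53, 4.38 and 4.78 CPM on SD and 9.24 and 11.4 CPM on HFD in *Mof*+/+ WAT. *C130026I21Rik* was at 51.2, 41.6 and 90.9 CPM on SD and 0 and 14.6 CPM on HFD in *Mof*+/- WAT, and at 0, 0 and 0 and then 54.6 and 35.0 CPM in *Mof*+/+ WAT. *Gm2619* was at 39.3, 35.1 and 18.7 CPM on SD and 0 and 0 CPM on HFD in *Mof*+/- WAT, and at 0, 0 and 0 and then 28.2 and 11.99 CPM in *Mof*+/+ WAT. Both are predicted transcripts, and the way their reads were counted is uncertain. The SD *Mof*+/- libraries differ from the other 3 groups in sex-linked genes, and the part of this in the differences was not tested.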

How the results depend on the processing

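Separated genes (1276 higher, 2616 lower) became 438 and 677 when 95% counting intervals also had to be apart, 198 and 317 with a margin of at least 2, and 1298 lower with a mean of at least 10 CPM. Grouping by the column headings gave 4361 lower. Without 1 library, 1499 to 4412 were higher and 2758 to 7584 lower, the highest being 4412 without HFD *Mof*+/- replicate 1 and 7584 without HFD *Mof*+/- replicate 2. Of the higher and lower genes, the share that lay on the same side in *Mof*+/+ WAT (33.6% and 32.0%) was 40.1% and 28.0% with TMM scaling, 39.8% and 38.0% for genes whose intervals were apart, and 24.2 to 30.1% and 29.3 to 32% without 1 of the HFD *Mof*+/- libraries.

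The 0 edgeR calls became 394 with DESeq2, 1 with DESeq2's size factors in edgeR, 429 with no filter, 26 with 10 counts in every library, 2 with offsets for gene length, 193 with all 10 libraries in 1 fit, and 0 to 1813 without 1 library. The 14 interaction calls became 483 with DESeq2 and 3 to 3169 without 1 library. With the replicate block, 245 genes were called between the diets and 14 in the interaction (8 higher and 6 lower, against 4 and 10 without it), of which 8 were among the 14 called without the block. The replicate 1 minus replicate 2 differences had a correlation of -0.029 between the diets. HFD replicate 1 is shallow and rich in muscle counts, so this value cannot show whether replicate numbers pair animals.

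Among 235 named genes, 3366 alternative values gave 13 reversed directions in 9 genes, on the log2 scale. With column headings these were *Anxa1* 0.17, *Cdh5* -0.024, *Cry1* -0.16, *Ndufa1* 0.16, *Ppargc1a* -0.13 and *Slc2a4* 0.16. With the replicate block they were *Kat8* -0.025 and *Ppargc1a* -0.39. Leaving out 1 library turned *Dlst* (-0.0077 to 0.30, without HFD replicate 1), *Kat8* (-0.53 to 0.62, without HFD replicate 1), *Irs1* (-1.22 to 0.025, without SD replicate 1), *Slc2a4* (-0.21 to 0.026, without HFD replicate 2) and *Ppargc1a* (-6.65 to 2.10, without HFD replicate 2, with a count of 0 in the remaining HFD replicate 1). The cause was not tested in any of these. Depth limits the lower side: 3 counts in HFD replicate 1 are 2.87 CPM.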
